A study of Mus musculus with 10 samples.

Results

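Accessible regions between genes were examined in innate lymphoid cells (ILCs) of the mouse small intestine: the ATAC-seq peaks that overlapped no protein-coding gene body and lay more than 1 kb and at most 50 kb from the nearest one. ATAC-seq uses the Tn5 transposase to cut and tag open chromatin, so the reads in a peak measure how accessible that stretch of DNA was. Of 36251 peaks outside the Y chromosome, 7572 (20.9%) met this rule, and 4296 genes were the nearest gene of at least 1 of them. The rule used positions on GRCm38 and no measured value. Cells were sorted from the lamina propria of C57BL/6 mice fed a tamoxifen diet several weeks before; the labels give no age and no surface markers of the sort. All 4 groups carried the Id2creERT2 allele, a Cre recombinase expressed from Id2 and activated by tamoxifen, with the tdRFP reporter. The Control group (n = 3) is labelled with no floxed allele, RORgt-KO (n = 2) carried homozygous floxed alleles for RORgt, RORgt-Tbet-KO (n = 2) carried these and Tbx21 f/f, and RORgt-RORa-KO (n = 3) carried these and Rora f/f. A library came from 1 intestine or from 2 to 3 pooled intestines. No RORa-only or T-bet-only deletion is among the samples, so both double deletions are read against RORgt-KO. Id2 is expressed in all ILCs, so Cre expression is not limited to 1 ILC subset.

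Intergenic accessible sites of this kind often hold enhancers, short stretches of DNA that bind transcription factors and act on a gene at a distance. RORgt, the factor that defines group 3 ILCs, binds ROR response elements near the interleukin-17 and interleukin-22 genes, and RORa, a related nuclear receptor, recognizes the same element. T-bet, encoded by Tbx21, binds T-box elements and is the factor of type 1 ILCs, which make interferon gamma and cytotoxic proteins. The nearest gene is used below only as a name for a peak: an enhancer can act on a gene farther away. A change in a bulk library also cannot tell a site that closed in each cell from a smaller share of cells with the site open.

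The 10 libraries held 2271585 to 5047436 reads in peaks outside Y, of which the intergenic peaks took 14.0% to 15.6%. The median intergenic peak held 27 to 51 reads per library. Levels below are the deposited log2 scaled reads per peak; a difference is on the same log2 scale, with its standard error (SE), and a peak is called higher or lower, or said to have risen or fallen, where its limma p-value, adjusted over all 36251 peaks, was under 0.05. Across the 7572 intergenic peaks, libraries correlated at r = 0.876 to 0.956 within groups and at 0.634 to 0.718 between Control and RORgt-RORa-KO; the peaks share depth and are not independent. Control replicate 1 had 48 intergenic peaks with 0 reads, against 2 to 19 in the others. All 9 pan-ILC marker genes were the nearest gene of a peak inside them or within 50 kb, as were 6 of 10 T cell, 3 of 8 B cell, 5 of 8 myeloid and 8 of 13 epithelial, stromal and endothelial marker genes. Those with none included Cd3g, Cd8a, Cd8b1, Trac, Ms4a1, Cd79a, Cd79b, Cd22, Csf1r, Lyz2, Mpeg1, Krt18, Krt20, Vil1, Col1a1 and Cdh5. The summed T cell marker peaks took 120.7 to 128.3 CPM (reads scaled to the library total in peaks) in Control and 173 to 215.3 in RORgt-RORa-KO. The sums of the B cell marker peaks were 241.9 to 280 in Control and 136 to 199.9 in the knockouts, and those of the epithelial, stromal and endothelial list 219.4 to 273.6 in Control and 305.4 to 376.5 in the knockouts. The part of these shifts in the results below was not tested.

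Some intergenic peaks lie on the start of a noncoding gene, and for these RefSeq (GRCm38.p6) gives the sequence from 250 bases before to 50 bases after the start. Such a 300-base window overlapped 279 of the 7572 peaks. The first window is printed because it holds 3 copies of the T-box half-site AGGTGTGA and the peak it overlaps was lower in RORgt-Tbet-KO than in RORgt-KO; the next overlaps a peak near Ets1 with the same difference; the third a peak near Gfi1 that rose in every knockout; the last a peak near Itga1 that fell in both double knockouts. The Ets1 window was chosen after its values were seen. All are written 5′ to 3′ along the strand of the noncoding gene. Capitals mark matches, on either strand, to AGGTCA (ROR half-site), AGGTGTGA (T-box half-site), TGTGGT (RUNX), TGANTCA (AP-1) or GGAAGT (ETS).
Gm30318, chr4:43822904-43823203, plus strand: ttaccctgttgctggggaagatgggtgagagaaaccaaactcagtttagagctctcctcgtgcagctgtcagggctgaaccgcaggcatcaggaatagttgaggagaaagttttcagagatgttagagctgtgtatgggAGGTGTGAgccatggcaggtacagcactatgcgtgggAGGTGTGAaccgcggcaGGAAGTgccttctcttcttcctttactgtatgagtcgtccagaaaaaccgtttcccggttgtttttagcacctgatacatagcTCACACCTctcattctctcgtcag
Gm31871, chr9:32594246-32594545, plus strand: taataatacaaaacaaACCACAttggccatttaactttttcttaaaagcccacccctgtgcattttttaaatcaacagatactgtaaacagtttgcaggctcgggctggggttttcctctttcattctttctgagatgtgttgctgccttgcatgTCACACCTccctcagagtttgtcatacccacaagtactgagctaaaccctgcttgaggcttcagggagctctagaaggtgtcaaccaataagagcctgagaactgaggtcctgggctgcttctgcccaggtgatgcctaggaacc
4930428O21Rik, chr5:107703431-107703730, minus strand: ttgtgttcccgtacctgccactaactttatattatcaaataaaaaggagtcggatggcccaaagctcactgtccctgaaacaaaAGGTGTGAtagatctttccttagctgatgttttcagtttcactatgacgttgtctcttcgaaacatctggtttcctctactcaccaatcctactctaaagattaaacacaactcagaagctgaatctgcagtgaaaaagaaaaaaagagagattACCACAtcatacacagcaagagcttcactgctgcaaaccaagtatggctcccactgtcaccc
Gm41075, chr13:115109625-115109924, plus strand: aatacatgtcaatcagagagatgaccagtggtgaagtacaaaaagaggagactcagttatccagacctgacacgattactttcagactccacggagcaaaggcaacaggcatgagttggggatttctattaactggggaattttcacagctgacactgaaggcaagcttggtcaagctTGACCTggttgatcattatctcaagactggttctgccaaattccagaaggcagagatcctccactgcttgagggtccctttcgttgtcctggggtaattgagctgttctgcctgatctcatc

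Among all 32851 promoter windows of the same length, 1.28% held at least 1 match to AGGTGTGA and only the Gm30318 window (0.00304%) held 3. Of the 326 windows that overlapped intergenic peaks, 6 (1.84%) held the T-box half-site, 17.2% the ROR half-site (16.3% of all windows), 20.9% the RUNX motif (16.8%), 11% the AP-1 motif (7.81%) and 24.2% the ETS core (23.8%). A window can reach past its peak: the Gm40929 match and the last of the 3 Gm30318 copies lie outside the peak itself. Of the 6 peaks whose window held a T-box match, 2 were lower in RORgt-Tbet-KO than in RORgt-KO, the Gm30318 and the Gm31871 peak, where 0.965% of all peaks were. Both calls depend on single libraries, as given next, and were lost with no mean-variance trend (adjusted p = 0.0722 and 0.0578), so the 2 of 6 is a description of few peaks. A match says only that these letters are present, and the peaks away from noncoding gene starts were not searched. AGGTCA and AGGTGTGA share their first 4 letters, matches of different motifs may overlap, and 1 window can hold several.

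The Gm30318 peak (chromosome 4, 43822942 to 43823158, 1509 bp upstream of the olfactory receptor gene Olfr156) stood at 2.69, 4.28 and 4.00 over the Control libraries, 5.24 and 4.97 over RORgt-KO, 2.23 and 2.55 over RORgt-Tbet-KO, and 5.13, 4.40 and 5.33 over RORgt-RORa-KO. Both RORgt-Tbet-KO libraries lay below every other library. Their levels and the lowest Control level rest on few reads. The order against Control and the size of the differences at this peak are therefore uncertain. The difference between RORgt-Tbet-KO and RORgt-KO was -2.71 (SE 0.60, adjusted p = 0.0159), and that call was lost when any 1 of the 4 libraries was left out (adjusted p = 0.0712 to 0.193). Olfactory receptor genes have near copies, so its reads may be split between them. The Gm31871 peak (chromosome 9, 32594282 to 32594670, 41571 bp from Ets1, an ETS-family transcription factor gene) read 6.05, 5.37 and 5.20 over the Control libraries, 7.03 and 6.61 over RORgt-KO, 4.56 and 5.24 over RORgt-Tbet-KO, and 7.21, 7.21 and 7.15 over RORgt-RORa-KO. It was higher by 1.28 in RORgt-KO than in Control (SE 0.29) and differed by -1.92 between RORgt-Tbet-KO and RORgt-KO (SE 0.31, adjusted p = 0.000673; 0.064 without RORgt-KO replicate 1 and 0.0564 without RORgt-Tbet-KO replicate 1).

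Over peaks of all levels, intergenic peaks were most accessible close to genes and, in Control, least accessible at 5 to 20 kb. There the median level was 5.78 ± 0.02 (SD over library medians, n = 3) for the 480 peaks at 1 to 2 kb, 5.65 ± 0.03 for the 1056 at 2 to 5 kb, 5.42 ± 0.06 for the 1519 at 5 to 10 kb, 5.47 ± 0.04 for the 1923 at 10 to 20 kb and 5.56 ± 0.04 for the 2594 at 20 to 50 kb. Peaks within 1 kb of a gene end (10850) stood far above all of these, at 7.02 ± 0.07, and were longer, with a median of 831 bp against 386 bp for the intergenic peaks. Peaks inside genes (14157) were at 5.62 ± 0.04 and peaks beyond 50 kb (3672) at 5.50 ± 0.12. Beyond 5 kb the Control levels did not fall further.

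Over intergenic peaks of all levels, the drop between near and far peaks was larger in the knockouts. The 20 to 50 kb median minus the 1 to 2 kb median was -0.22 ± 0.05 in Control (n = 3), -0.38 ± 0.06 in RORgt-KO (n = 2), -0.56 ± 0.06 in RORgt-Tbet-KO (n = 2) and -0.34 ± 0.14 in RORgt-RORa-KO (n = 3). Both RORgt-Tbet-KO libraries, at -0.52 and -0.60, lay below every library of the other groups, and the Control libraries, from -0.27 to -0.16, overlapped RORgt-RORa-KO, from -0.50 to -0.24. The far peaks were at 5.39 ± 0.02 in RORgt-KO, 5.32 ± 0.03 in RORgt-Tbet-KO and 5.46 in RORgt-RORa-KO, and the nearest peaks at 5.77, 5.87 and 5.80. The Control drop depends on peaks with few reads: over peaks with a mean of at least 20 reads it turned to a rise of 0.131 (SD 0.127). Among the third of intergenic peaks with the highest mean level, no group showed a drop. Near and far medians there were 6.86 and 7.05 for Control, 6.85 and 6.95 for RORgt-KO. RORgt-Tbet-KO went from 7.06 to 7.11, RORgt-RORa-KO from 6.9 to 7.04. The knockout drops thus do not hold for the most accessible peaks. Among peaks of middle level, RORgt-Tbet-KO still dropped, from 5.49 to 5.35.

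**Figure D1:**
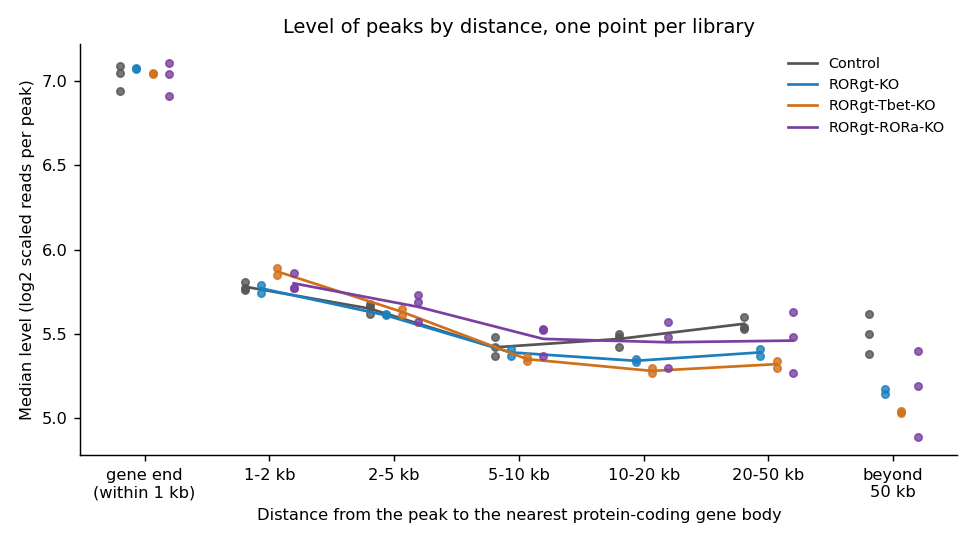
Median level of the peaks (log2 scaled reads) in each distance class, with 1 point per library and lines through the group means of the 5 intergenic bins. The gene-end class stands near 7.0, the intergenic bins between about 5.3 and 5.9, and the RORgt-Tbet-KO line runs from 5.87 at 1 to 2 kb to 5.32 at 20 to 50 kb.

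In RORgt-KO against Control, 489 intergenic peaks rose (6.46%) and 668 fell (8.82%), where 5.19% and 7.12% of all peaks did. In RORgt-Tbet-KO against Control 993 rose (13.1%) and 960 fell (12.7%), with 11.3% of all peaks in each direction. In RORgt-RORa-KO against Control 1426 rose (18.8%) and 1341 fell (17.7%), with 15.1% and 16.1% over all peaks. The shares lie a little above the background, which includes the gene-end peaks, where 1.59% rose and 1.54% fell in RORgt-KO; they are close to those of peaks inside genes, where 20.4% rose and 17.5% fell in RORgt-RORa-KO. The 3 comparisons share the Control libraries. Among the 4 groups, 37.0% of intergenic peaks differed by the moderated F test, against 30.7% of all peaks. Leaving out 1 knockout library lowered the counts by more than 1.5 times: 1157 calls in RORgt-KO became 455 without replicate 1 and 557 without replicate 2, and 1953 in RORgt-Tbet-KO became 859 and 943; the remaining library was then assumed to vary like the other groups. Against 2767 in RORgt-RORa-KO, leaving out 1 library gave 2327 to 2810.

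Direction changed with distance in RORgt-Tbet-KO. At 1 to 2 kb 77 peaks rose and 55 fell, at 2 to 5 kb 172 rose and 101 fell, at 5 to 10 kb 199 and 168, at 10 to 20 kb 252 and 240, and at 20 to 50 kb 293 rose and 396 fell. Fallen peaks thus made up 38.5% of the called peaks at 1 to 5 kb and 57.5% at 20 to 50 kb, and over the other settings tried 34.2% to 43.1% and 52.4% to 65%. Among the third of intergenic peaks with the highest mean level, 24.0% rose and 8.33% fell at 1 to 2 kb, and 18.2% rose and 14.1% fell at 20 to 50 kb. In RORgt-KO the fallen share was 54.8% near and 62.6% far, and 47.1% and 57.8% after centring each library on its median. Without RORgt-KO replicate 1 it was 73.8% near and 72.1% far, so the higher far share in RORgt-KO was not kept without that library. In RORgt-RORa-KO the fallen share was 46.9% near and 51.2% far, and 50% and 50.3% without RORgt-RORa-KO replicate 3. Peaks beyond 50 kb fell more often than they rose in each knockout, at 15.1% against 5.28% in RORgt-KO, 22.5% against 8.58% in RORgt-Tbet-KO and 27.8% against 14.6% in RORgt-RORa-KO. The trend with distance was described over peaks and not tested, since peaks are not replicates.

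**Figure D2:**
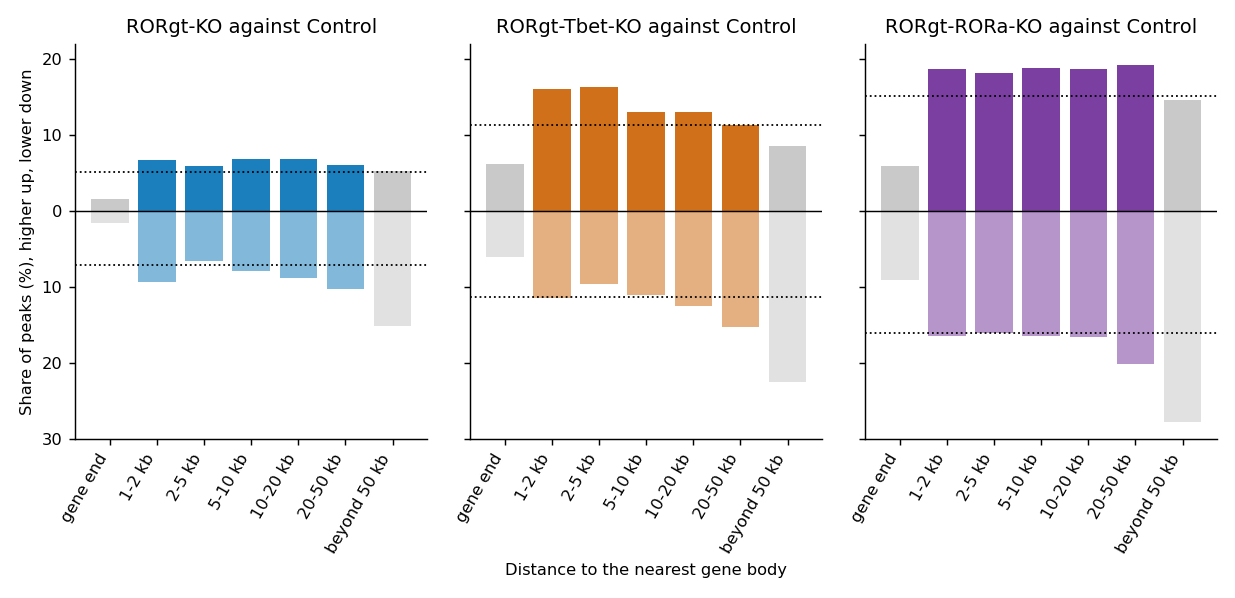
Share of peaks (%) called higher (upward bars) and lower (downward bars) against Control in each distance class, for each knockout; dotted lines give the shares over all peaks and grey bars the classes outside the rule. In RORgt-Tbet-KO the upward bars shrink from 16.0% to 11.3% and the downward bars grow from 11.5% to 15.3% between the nearest and the farthest intergenic bin.

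Peaks just inside and just outside the rule had similar levels in Control. The 61 peaks at 0.9 to 1 kb had a Control median of 5.77 and the 59 at 1 to 1.1 kb one of 5.75; the 269 at 45 to 50 kb were at 5.63 and the 243 at 50 to 55 kb at 5.64. In RORgt-Tbet-KO the outer edge differed more, with library medians of 5.34 and 5.27 inside and 5.16 and 5.14 outside. The strand of the nearest gene was known for 5866 peaks, of which 3160 lay upstream and 2706 downstream. In RORgt-RORa-KO 20.7% of upstream peaks rose and 16.7% fell, against 17.9% and 18.5% of downstream peaks. The 1584 peaks over the body of a long noncoding RNA gene had shares of 16.2% and 16.8%. The 279 over a promoter window were more accessible, at 6.54 ± 0.09 in Control, and changed less often, with 15.1% risen and 10.4% fallen.

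The gene lists below were drawn up with earlier results of these data known, so their counts describe and do not test. They are read against the shares of all intergenic peaks above. Type 3 genes, which encode the cytokines and receptors of group 3 ILCs, lost far more sites than they gained in RORgt-KO. Of 16 genes, 15 had an intergenic peak, 46 peaks in all: 13 fell, at Ccl20, Cd93, Csf2, Il17a, Il17f, Il1r1, Il22, Il7r, Maf and Tnfsf11, and 1 rose, at the interleukin-23 receptor gene Il23r. The median difference of the 46 was -0.31, against -0.01 over all intergenic peaks. These were 28.3% fallen and 2.17% risen. In RORgt-Tbet-KO 11 fell (23.9%) and 6 rose (13%), and in RORgt-RORa-KO 17 fell (37%) and 8 rose (17.4%). The medians were -0.19 and -0.20 (against -0.02 and 0.05). In both double knockouts the risen share lies near that of all intergenic peaks.

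The sites of the interleukin-17 locus did not all fall by the same amount. The peak 5891 bp downstream of Il17a (chromosome 1, 20740387 to 20740965) read 8.73, 8.69 and 8.34 over the Control libraries, 7.28 and 7.04 over RORgt-KO, 7.48 and 7.64 over RORgt-Tbet-KO, and 5.65, 4.73 and 5.70 over RORgt-RORa-KO. Each RORgt-RORa-KO library lay below all RORgt-KO and RORgt-Tbet-KO libraries, which in turn lay below all Control libraries. It fell by 1.42 in RORgt-KO (SE 0.25, adjusted p = 0.000216) and by 3.23 in RORgt-RORa-KO (SE 0.22, adjusted p = 1.61e-11); between those knockouts the difference was -1.80 (SE 0.25, adjusted p = 6.66e-05; 0.0711 with no mean-variance trend). The peak 16924 bp downstream of Il17f (chromosome 1, 20759576 to 20760222) had the same order: 8.08, 8.66 and 7.93 over the Control libraries, 6.97 and 6.80 over RORgt-KO, 7.28 and 7.29 over RORgt-Tbet-KO, and 5.07, 5.77 and 5.37 over RORgt-RORa-KO. Its difference between RORgt-RORa-KO and RORgt-KO was -1.48 (SE 0.24, adjusted p = 0.000619; 0.0834 with no mean-variance trend). The distal peak 44632 bp upstream of Il17a (chromosome 1, 20685830 to 20686273) could not show whether there was such a step. It stood at 6.64, 6.68 and 6.51 in Control and at 2.50 to 4.19 in the 7 knockout libraries, and the difference between RORgt-RORa-KO and RORgt-KO was 0.25, not called. This peak already differed from Control by -3.01 in RORgt-KO, and at such low levels a further fall could hardly be seen.

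A peak 13890 bp upstream of Il22, which encodes the ILC3 cytokine that acts on epithelium, read 6.83, 7.0 and 6.56 over the Control libraries, 5.14 and 4.56 over RORgt-KO, 5.08 and 5.47 over RORgt-Tbet-KO, and 5.24, 4.14 and 3.93 over RORgt-RORa-KO. All 7 knockout libraries lay below all Control libraries, and the difference between RORgt-RORa-KO and RORgt-KO (-0.41) was not called. A peak 18712 bp downstream of Ccl20, a chemokine ligand of CCR6, fell by 1.18 in RORgt-KO (SE 0.34), by 1.47 in RORgt-Tbet-KO (SE 0.34) and by 2.60 in RORgt-RORa-KO (SE 0.31). The peak 13847 bp from Cd93, a cell surface receptor, fell by 1.35, 1.76 and 2.38 (SE 0.26, 0.26 and 0.23). The further fall between RORgt-KO and RORgt-RORa-KO passed the test at Ccl20 (-1.43, SE 0.34, adjusted p = 0.0276) and Cd93 (-1.03, SE 0.26, adjusted p = 0.0347), and was lost at both without RORgt-KO replicate 2 (adjusted p = 0.85 and 0.641), as it was with no mean-variance trend (0.19 and 0.0996) and with limma voom (0.0575 and 0.086). At Cd93 it was also lost without RORgt-KO replicate 1 (0.0903), RORgt-RORa-KO replicate 1 (0.0931) and RORgt-RORa-KO replicate 3 (0.0689), and at Ccl20 without RORgt-RORa-KO replicate 3 (0.0991).

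Type 1 genes, for cytotoxic proteins, chemokines and natural killer receptors, showed the opposite. Of 29 genes, 16 had an intergenic peak, 49 in all. In RORgt-KO 12 rose and 0 fell, at Ccl3, Ccl5, Cxcr3, Fasl, Gzmb, Prf1, Tbx21 and Xcl1; in RORgt-Tbet-KO 15 rose and 3 fell, at Cxcr3, Itga1 and Klrg1; in RORgt-RORa-KO 24 rose and 4 fell, at Il12rb1, Itga1 and Klrb1c. The risen shares were 24.5%, 30.6% and 49%, and the fallen shares 0%, 6.12% and 8.16%. The median differences of the 49 peaks were 0.33, 0.06 and 0.66. The 1 intergenic peak near Tbx21, 8213 bp away, rose by 1.40 in RORgt-KO and by 1.06 in RORgt-Tbet-KO; which exons are floxed is not stated in the labels, so this peak tests no deletion.

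**Figure D3:**
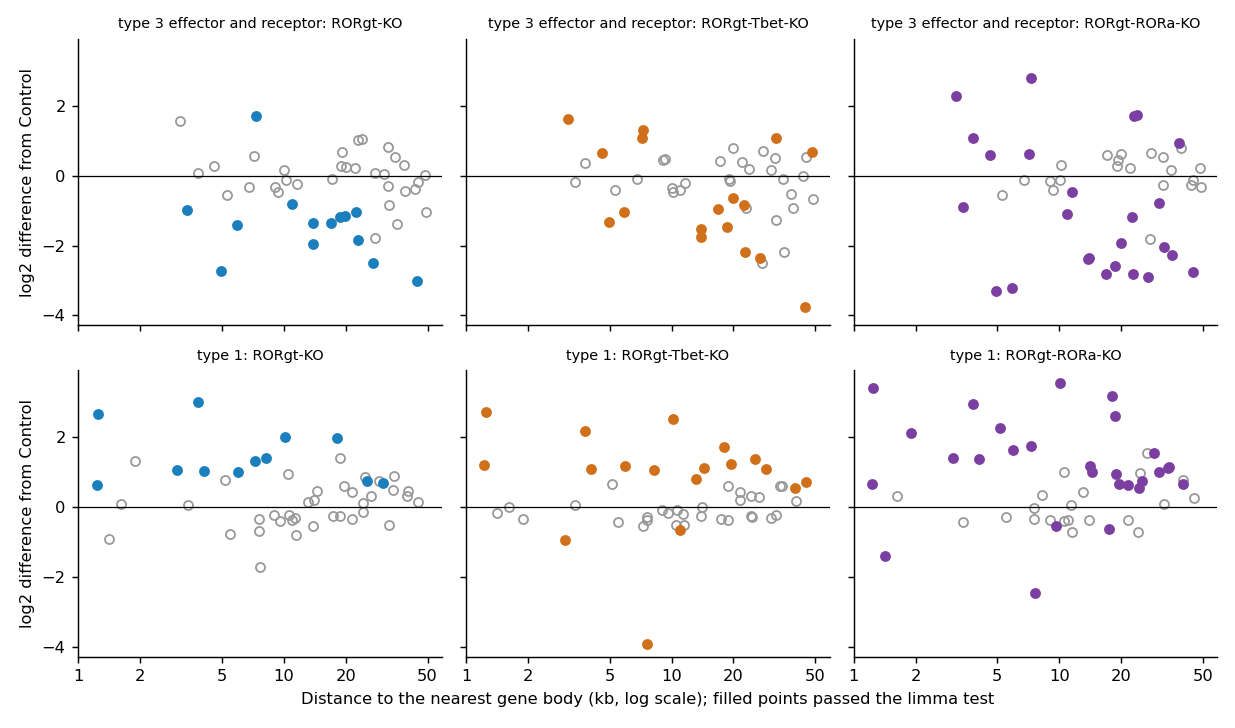
Difference from Control (log2) of each intergenic peak nearest to a type 3 gene (46 peaks, top) or a type 1 gene (49 peaks, bottom), by distance to the gene body in kb on a log scale; filled points passed the limma test and open points did not. In the RORgt-KO panels 13 of the 14 filled type 3 points lie below 0 and all 12 filled type 1 points above 0, from about 1 kb to over 40 kb.

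Near Prf1, which encodes the pore-forming protein perforin, a peak 3806 bp downstream (chromosome 10, 61308490 to 61308771) read 2.69, 3.54 and 4.76 over the Control libraries, 6.49 and 6.90 over RORgt-KO, 6.08 and 5.63 over RORgt-Tbet-KO, and 6.94, 6.52 and 6.44 over RORgt-RORa-KO. No knockout library overlapped Control, and the differences were 3.03 (SE 0.40, adjusted p = 7.01e-06), 2.19 (SE 0.40) and 2.97 (SE 0.36). The Control levels of this peak rest on few reads, so the size of these rises is uncertain. A peak 18083 bp upstream of the chemokine gene Xcl1 (chromosome 1, 164953605 to 164953947) stood at 3.37, 3.69 and 3.85 over the Control libraries, 5.53 and 5.70 over RORgt-KO, 5.23 and 5.50 over RORgt-Tbet-KO, and 6.65, 6.88 and 6.95 over RORgt-RORa-KO. The RORgt-RORa-KO libraries were the highest, 1.46 above RORgt-Tbet-KO (SE 0.33, adjusted p = 0.00405); their distance from RORgt-KO, 1.22, was not called.

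Cxcr3, the chemokine receptor gene of type 1 lymphocytes, had 1 intergenic peak, 3033 bp upstream (chromosome X, 101737180 to 101737714), described here after its values were seen. It read 6.18, 6.42 and 6.26 over the Control libraries, 7.14 and 7.59 over RORgt-KO, 5.37 and 5.30 over RORgt-Tbet-KO, and 7.47, 7.87 and 7.71 over RORgt-RORa-KO. The order was RORgt-Tbet-KO below Control below the other groups, with no overlap among these 3 levels. It rose by 1.08 in RORgt-KO (SE 0.23, adjusted p = 0.00173) and by 1.40 in RORgt-RORa-KO (SE 0.20, adjusted p = 5.03e-06) and fell by 0.95 in RORgt-Tbet-KO (SE 0.23, adjusted p = 0.00316). Between RORgt-Tbet-KO and RORgt-KO the difference was -2.03 (SE 0.25, adjusted p = 1.8e-05).

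A type 1 site that fell was the peak 7627 bp upstream of Itga1, an integrin gene of tissue-resident type 1 cells, over the Gm41075 window printed above. It fell by 3.91 in RORgt-Tbet-KO (SE 0.61, adjusted p = 3.54e-05) and by 2.45 in RORgt-RORa-KO (SE 0.55, adjusted p = 0.000958). Its levels were 5.96, 6.20 and 5.32 over the Control libraries, 3.61 and 4.65 over RORgt-KO (difference -1.70, not called), 0.91 and 2.91 over RORgt-Tbet-KO, and 3.48, 3.99 and 2.65 over RORgt-RORa-KO. All knockout libraries lay below all Control libraries. The RORgt-Tbet-KO levels of 0.91 and 2.91 rest on few reads and lie far apart, so the size of that fall is uncertain.

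Of 25 ILC transcription factor genes, 18 had an intergenic peak, 64 in all; 6 rose and 7 fell in RORgt-KO, 13 rose and 7 fell in RORgt-Tbet-KO, and 26 rose and 14 fell in RORgt-RORa-KO. In RORgt-KO these were 9.38% risen and 10.9% fallen, close to the 6.46% and 8.82% of all intergenic peaks, as was the fallen share in RORgt-Tbet-KO (10.9% against 12.7%). In RORgt-RORa-KO 40.6% rose, against 18.8%, and 21.9% fell, against 17.7%. Near Gfi1, a transcriptional repressor of ILC and granulocyte development, the peak over the 4930428O21Rik window (12645 bp downstream) read 5.42, 5.13 and 5.0 over the Control libraries, 6.66 and 7.03 over RORgt-KO, 6.32 and 6.05 over RORgt-Tbet-KO, and 7.17, 7.88 and 7.26 over RORgt-RORa-KO. It rose by 1.66, 1.00 and 2.26 (SE 0.26, 0.26 and 0.23). A peak 26777 bp downstream of Zeb2, another repressor, went the other way: 9.23, 9.27 and 8.68 over the Control libraries, 7.80 and 7.88 over RORgt-KO, 8.09 and 7.99 over RORgt-Tbet-KO, and 6.63, 6.84 and 6.84 over RORgt-RORa-KO. The 3 levels of Control, the other knockouts and RORgt-RORa-KO did not overlap, and RORgt-RORa-KO differed from RORgt-KO by -1.07 (SE 0.19, adjusted p = 0.00216; 0.115 without RORgt-KO replicate 2 and 0.113 with no mean-variance trend).

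Each of the smaller lists rests on few peaks, and its counts stand beside 6.46%, 13.1% and 18.8% of all intergenic peaks risen and 8.82%, 12.7% and 17.7% fallen in the single RORgt knockout, the T-bet double and the RORa double. Of 38 peaks at AP-1, EGR and NR4A genes, most of which are induced rapidly when cells are stimulated, 2 rose and 2 fell in RORgt-KO, 12 rose and 2 fell in RORgt-Tbet-KO, and 11 rose and 3 fell in RORgt-RORa-KO. Egr2, a zinc finger factor, stood out, with a peak 30316 bp upstream at 6.07, 5.50 and 5.72 over the Control libraries, 6.53 and 6.11 over RORgt-KO, 6.18 and 6.07 over RORgt-Tbet-KO, and 7.89, 8.08 and 7.79 over RORgt-RORa-KO. It was 1.60 higher in RORgt-RORa-KO than in RORgt-KO (SE 0.24, adjusted p = 0.00021), and the other groups lay together below. Among 27 peaks at genes of lymphoid tissue inducer (LTi)-like ILC3s, 1 rose and 0 fell in RORgt-KO. In RORgt-Tbet-KO 8 rose and 2 fell, and in RORgt-RORa-KO 6 rose and 5 fell. Risen peaks lay near Ccr6 and Ccr7 in both double knockouts and near Cxcr5 in RORgt-Tbet-KO. None of the 27 was called between a double knockout and RORgt-KO. Of 11 clock gene peaks 2, 3 and 4 fell and 0, 2 and 1 rose in the 3 knockouts. The fallen ones included a peak 19030 bp from Bhlhe40, a repressor of clock and cytokine genes, which fell by 1.45, 1.76 and 1.48 (SE 0.20, 0.20 and 0.17). Other Bhlhe40 peaks differed from this one. The peak 32590 bp away was called lower against Control in RORgt-Tbet-KO only (-2.17, SE 0.27), with -0.70 in RORgt-KO and -0.24 in RORgt-RORa-KO. The 1 clock peak that rose in RORgt-RORa-KO also lay near Bhlhe40. Of 12 type 2 gene peaks 3, 4 and 3 fell and 0, 1 and 2 rose, with a peak 28098 bp from the arginase gene Arg1 lower by 1.62, 1.66 and 1.33. Of 40 homing and residency peaks 4, 4 and 11 rose (10%, 10% and 27.5%) and 1, 2 and 5 fell (2.5%, 5% and 12.5%); the risen shares in RORgt-KO and RORgt-Tbet-KO lie near those of all intergenic peaks.

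Peaks near pan-ILC marker genes (25) rose in 2, 6 and 8 cases (8%, 24% and 32%) and fell in 2, 2 and 2 (8% each). In RORgt-KO both shares lie near those of all intergenic peaks. The lists for other cell types hold few intergenic peaks: 1 near a B cell marker, not called in any knockout; 1 near the T cell marker Cd40lg, which rose in RORgt-Tbet-KO (0.76; lost without Control replicate 3 or either RORgt-Tbet-KO library, adjusted p = 0.0635 to 0.14) and RORgt-RORa-KO (1.14); 2 near myeloid markers, of which the Itgam peak rose in RORgt-RORa-KO (1.18; lost without Control replicate 2 or RORgt-RORa-KO replicate 1 or 3, adjusted p = 0.0522 to 0.17); and 9 near epithelial, stromal and endothelial markers. Of these 9, 1 rose and 1 fell in RORgt-KO and in RORgt-RORa-KO and 0 passed in RORgt-Tbet-KO. The one that fell, 2231 bp upstream of the keratin gene Krt8, stood at 7.23, 7.18 and 7.18 over the Control libraries, 6.28 and 6.41 over RORgt-KO, 7.48 and 7.38 over RORgt-Tbet-KO, and 4.94, 5.68 and 4.97 over RORgt-RORa-KO. It fell by 2.00 in RORgt-RORa-KO (SE 0.22, adjusted p = 7.36e-08) and by 0.85 in RORgt-KO (adjusted p = 0.0218; 0.0506 to 0.182 when any of Control replicates 1 and 2 or the RORgt-KO replicates was left out).

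**Figure D4:**
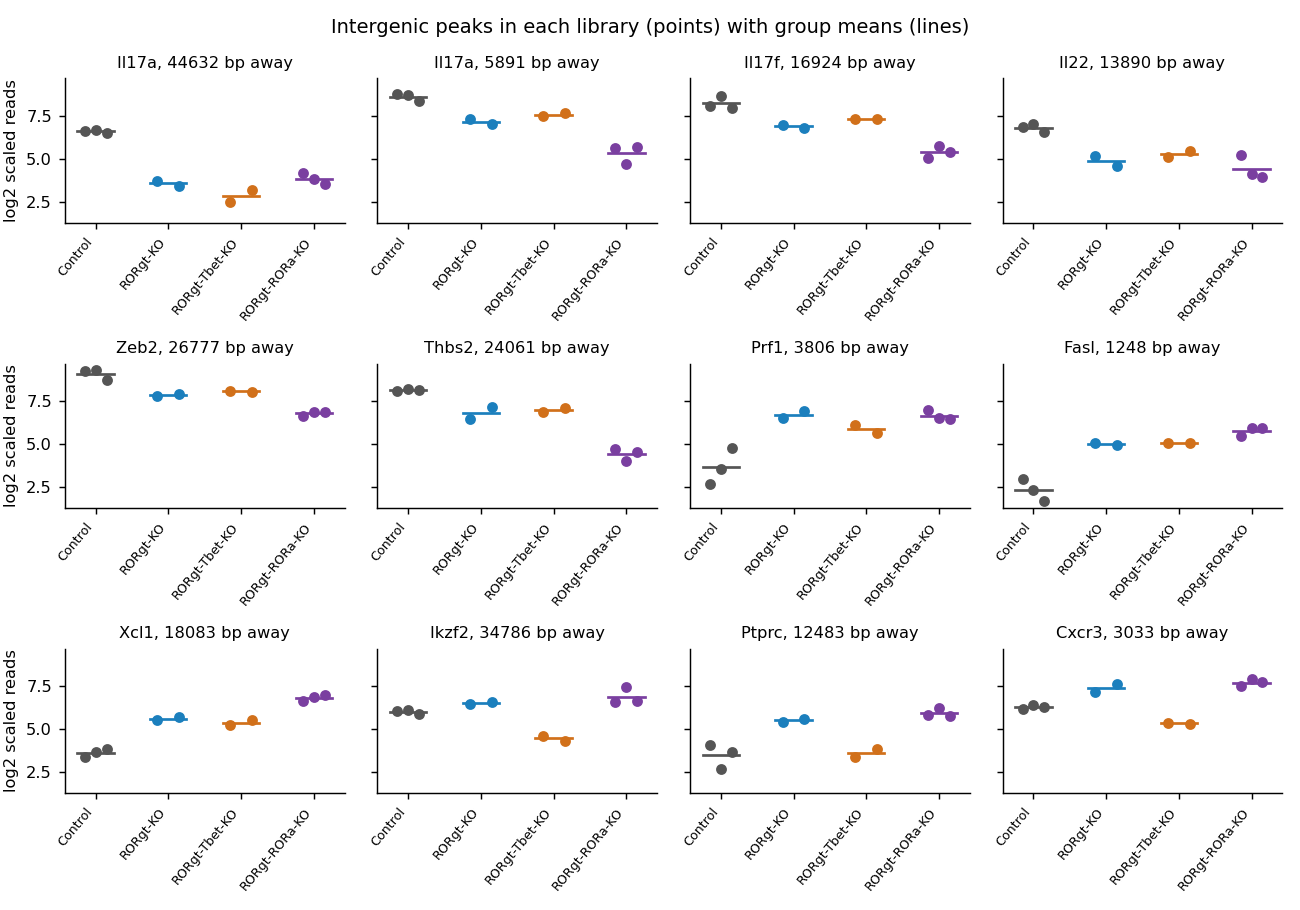
Level (log2 scaled reads) of 12 intergenic peaks in each library, with points for libraries and lines for group means; each panel is titled with the nearest gene and the distance in bp. The upper row and the Zeb2 and Thbs2 panels fall from Control, with RORgt-RORa-KO lowest in the 5891 bp Il17a panel and in the Il17f, Zeb2 and Thbs2 panels, and the Ikzf2, Ptprc and Cxcr3 panels are lower in RORgt-Tbet-KO than in RORgt-KO.

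By the smallest p of the F test, the leading intergenic peak of 4 of the 5 distance bins fell most in RORgt-RORa-KO. These were the peaks at Galm, a galactose metabolism enzyme (1618 bp), Odc1, the rate-limiting enzyme of polyamine synthesis (3856 bp), Musk, a receptor kinase of the neuromuscular junction (6229 bp), and Lpl, lipoprotein lipase (46719 bp). The Lpl peak (chromosome 8, 68953651 to 68954486) read 9.13, 9.32 and 8.88 over the Control libraries, 7.75 and 8.0 over RORgt-KO, 8.33 and 8.38 over RORgt-Tbet-KO, and 6.46, 6.52 and 6.15 over RORgt-RORa-KO. The differences of the single RORgt knockout, the T-bet double and the RORa double from Control were -1.70, -1.85 and -3.04 at Galm, -0.76, -0.58 and -2.33 at Odc1, -1.93, -1.70 and -3.35 at Musk, and -1.23, -0.76 and -2.73 at Lpl, all called. RORgt-RORa-KO was also below RORgt-KO at each of the 4, by 1.34 to 1.57 on the log2 scale. The exception was the 10 to 20 kb bin, led by a peak 12631 bp downstream of C6, a complement component. It rose from 5.46, 5.18 and 5.53 in Control to 8.01 and 8.24, to 7.51 and 7.39, and to 8.31, 8.70 and 8.14, with differences of 2.73, 2.06 and 2.99.

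Several of the largest rises and falls among the named peaks were called in all 3 knockouts, which share the Control libraries. The peak 8319 bp downstream of Rpl11, a ribosomal protein gene (chromosome 4, 136040409 to 136041035), had the largest rise in both RORgt-KO and RORgt-Tbet-KO and the largest after Itgb1 and Rasgrf1 in RORgt-RORa-KO. It read 2.69, 2.96 and 4.92 over the Control libraries, 6.97 and 6.56 over RORgt-KO, 7.65 and 7.71 over RORgt-Tbet-KO, and 6.88, 6.91 and 7.49 over RORgt-RORa-KO, and was higher than Control by 3.24, 4.15 and 3.57 (SE 0.40, 0.40 and 0.36). No knockout library overlapped Control. Next in RORgt-Tbet-KO came a peak 2605 bp from Prdm14, a germline factor gene (4.01, SE 0.35). Control replicates 1 and 2 held few reads at the Rpl11 peak, so the size of its rise is uncertain. Other large rises also rest on few Control reads: Control replicate 1 had 0 reads at Rasgrf1 and Atp11b and 1 read at Hemgn, Mad2l1, Itgb1 and the Xcl1 peak 10134 bp away, so the size of those differences is uncertain. Their calls as largest rises were kept without that library, and that of Atp11b in RORgt-KO was lost without RORgt-KO replicate 2 (adjusted p = 0.134). The largest falls were 6290 bp downstream of ccdc198 in RORgt-KO (-3.78, SE 0.43), 17422 bp downstream of Musk in RORgt-Tbet-KO (-4.46, SE 0.65) and 39653 bp downstream of Rpia, a pentose phosphate enzyme, in RORgt-RORa-KO (-4.45, SE 0.46). Each of these peaks fell in all 3 knockouts. They lead among the peaks with enough reads in the knockouts to be named; falls near Ear14, Rnase2a, Olfr175, Tas2r126 and Sfi1 are uncertain, since these genes have near-identical copies between which reads can be split.

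RORgt-Tbet-KO was set against RORgt-KO to see which sites differ when T-bet is deleted as well as RORgt. Few intergenic peaks passed: 21 were higher (0.277%) and 111 lower (1.47%), where 0.179% and 0.965% of all peaks were. Lower calls prevailed under each scaling, but the higher share moved from 15.9% of calls to 29.7% with limma voom on recovered reads, and with only these groups in the fit 483 of 807 calls were higher and with library weights 403 of 777, so the balance depends on the model. Leaving out 1 library left 32 (RORgt-KO replicate 1), 44 (RORgt-KO replicate 2), 35 (RORgt-Tbet-KO replicate 1) or 68 (RORgt-Tbet-KO replicate 2) of 132 calls. Cxcr3, above, kept its call in all of these fits, as did a peak 34786 bp from Ikzf2, the Helios gene. The Ikzf2 peak (chromosome 1, 69496075 to 69496421) read 6.05, 6.10 and 5.85 over the Control libraries, 6.43 and 6.58 over RORgt-KO, 4.61 and 4.33 over RORgt-Tbet-KO, and 6.57, 7.43 and 6.61 over RORgt-RORa-KO, a difference of -2.04 between RORgt-Tbet-KO and RORgt-KO (SE 0.31, adjusted p = 0.000348).

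The other list genes with a lower site in RORgt-Tbet-KO than in RORgt-KO were Bcl11b, Ets1, Bhlhe40, S1pr1, Ptprc, Xcl1, Ccl3 and Il23r, with 9 peaks between -2.17 and -0.90; Krt8 had the 1 higher site (1.09). At Ptprc, the CD45 gene, the peak 12483 bp upstream read 4.07, 2.69 and 3.68 over the Control libraries, 5.41 and 5.61 over RORgt-KO, 3.37 and 3.83 over RORgt-Tbet-KO, and 5.81, 6.21 and 5.77 over RORgt-RORa-KO. It rose in RORgt-KO (2.03, SE 0.44, adjusted p = 0.00249) and RORgt-RORa-KO (2.45, SE 0.40), while RORgt-Tbet-KO overlapped Control (0.12, not called). A peak 37546 bp upstream of Bcl11b, a lymphoid transcription factor gene, had the same shape, at 5.13, 5.37 and 5.81, then 7.0 and 6.95, then 5.30 and 5.42, then 6.71, 6.52 and 6.18. Each of these 10 calls was lost without at least 1 of the 4 libraries: at Ptprc adjusted p was 0.156 to 0.467 without any 1 of them, and at Bcl11b 0.0635 to 0.0812 without RORgt-KO replicate 1, RORgt-KO replicate 2 or RORgt-Tbet-KO replicate 1. The largest rise was 20581 bp downstream of Fam126a, from 5.28 and 4.11 in RORgt-KO to 7.66 and 7.58 (2.92, SE 0.33, adjusted p = 7.82e-06), kept in each of those fits.

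RORgt-RORa-KO was set against RORgt-KO to see which sites differ when RORa is deleted as well. Here 49 intergenic peaks were higher (0.647%) and 102 lower (1.35%), against 0.331% and 1.14% of all peaks; without RORgt-KO replicate 1 there were 64 calls and without RORgt-KO replicate 2 there were 28. One fall was at a site where RORgt-KO and Control overlapped. There, a peak 1272 bp downstream of Erich3 (chromosome 3, 154769062 to 154769695) read 6.44, 7.63 and 7.03 over the Control libraries, 7.08 and 7.24 over RORgt-KO, 7.39 and 7.09 over RORgt-Tbet-KO, and 4.94, 4.40 and 4.89 over RORgt-RORa-KO. All RORgt-RORa-KO libraries lay below all others, with a difference of -2.41 from RORgt-KO (SE 0.28, adjusted p = 9.45e-06), and RORgt-KO overlapped Control. At Thbs2, which encodes a matrix glycoprotein, a peak 24061 bp upstream (chromosome 17, 14718323 to 14719139) was partly lower in RORgt-KO: 8.09, 8.20 and 8.10 over the Control libraries, 6.43 and 7.14 over RORgt-KO, 6.83 and 7.09 over RORgt-Tbet-KO, and 4.73, 3.99 and 4.54 over RORgt-RORa-KO. The difference between RORgt-RORa-KO and RORgt-KO was -2.37 (SE 0.26, adjusted p = 3.96e-06). Of the listed genes, Il17a, Il17f, Ccl20, Cd93, Zeb2, Tox2 and Krt8 had a lower site and Egr2, Prdm1, Runx3, Gpr15 and Fasl a higher one. The Egr2 call was kept under every alternative run. The Gpr15 call was lost without RORgt-KO replicate 2 (adjusted p = 0.846) or any 1 RORgt-RORa-KO library (0.0631 to 0.125), and after centring, quantile normalization, limma voom or with only these groups in the fit (0.0508 to 0.118). At Runx3 the call was lost without either RORgt-KO library (0.164 and 0.457) or RORgt-RORa-KO replicate 1 or 3 (0.0931 and 0.114), and after centring, quantile normalization or the replicate block (0.052 to 0.0623). The Prdm1 call was lost without either RORgt-KO library (0.103 and 0.254), and so was that of the Fasl peak 18821 bp downstream (0.0654 and 0.298), which also needed RORgt-RORa-KO replicate 3 (0.068). The Krt8 call was lost without RORgt-KO replicate 1 or 2 or RORgt-RORa-KO replicate 1 (0.0575 to 0.288). With no mean-variance trend all 5 of these were lost (0.0796 to 0.233). A peak 36181 bp upstream of Tox2, an HMG-box factor gene, read 6.90, 6.75 and 7.26 over the Control libraries, 6.35 and 7.03 over RORgt-KO, 7.30 and 7.15 over RORgt-Tbet-KO, and 5.39, 5.40 and 5.6 over RORgt-RORa-KO (-1.22 from RORgt-KO, SE 0.25, adjusted p = 0.00701; 0.489 without RORgt-KO replicate 2 and 0.108 with no mean-variance trend).

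The double knockouts differed from each other at more sites: 356 intergenic peaks were higher in RORgt-Tbet-KO than in RORgt-RORa-KO (4.70%) and 411 lower (5.43%), against 3.72% and 3.82% of all peaks. The count of 767 became 283 without RORgt-Tbet-KO replicate 1 and 315 without RORgt-Tbet-KO replicate 2. A peak 5537 bp from Ank3, the ankyrin-G gene, had the largest fall. It read 4.46, 4.18 and 4.00 over the Control libraries, 5.61 and 4.35 over RORgt-KO, 2.23 and 3.07 over RORgt-Tbet-KO, and 6.01, 6.21 and 6.37 over RORgt-RORa-KO, a difference of -3.54 between the double knockouts (SE 0.45, adjusted p = 3.25e-06). The RORgt-Tbet-KO libraries lay below Control and the RORgt-RORa-KO libraries above it. A peak 27394 bp from Ret, the receptor of glial cell-derived ligands, separated them the other way: 7.73, 7.46 and 7.12 over the Control libraries, 6.04 and 5.78 over RORgt-KO, 7.25 and 7.36 over RORgt-Tbet-KO, and 5.98, 5.68 and 5.65 over RORgt-RORa-KO. RORgt-Tbet-KO thus lay within the Control range at this site, 1.54 above RORgt-RORa-KO (SE 0.24, adjusted p = 6.54e-05) and 1.40 above RORgt-KO (SE 0.26, adjusted p = 0.00312; 0.0984 without RORgt-KO replicate 2, 0.0589 and 0.0803 without RORgt-Tbet-KO replicates 1 and 2).

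Single genes had up to 11 intergenic peaks, and 2587 of the 4296 nearest genes had 1. Fasl, which encodes the Fas ligand, is described because its called peaks moved one way. Of its 8 peaks, 2 rose in RORgt-KO, 6 in RORgt-Tbet-KO and 6 in RORgt-RORa-KO, and 0 fell. The nearest, 1248 bp downstream (chromosome 1, 161779185 to 161779443), changed most, from 2.96, 2.37 and 1.68 in Control to 5.04 and 4.97, to 5.08 and 5.07, and to 5.44, 5.91 and 5.93 (2.67, 2.74 and 3.42, SE 0.46, 0.46 and 0.41). It had only 6, 4 and 2 reads over the Control libraries, so the size of its differences is uncertain. The peak 5149 bp downstream rose in RORgt-RORa-KO alone among the called differences from Control, to 7.61, 7.39 and 7.66 from 5.28, 4.96 and 5.63, and there it was 1.5 above RORgt-KO (SE 0.26, adjusted p = 0.00151; 0.169 without RORgt-KO replicate 2 and 0.0711 with no mean-variance trend). The farthest, 45158 bp away, was higher by 0.73 in RORgt-Tbet-KO (SE 0.20, adjusted p = 0.00815), a call lost without either RORgt-Tbet-KO library (0.0868 and 0.0731).

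Sites around Prdm1, the gene of the repressor Blimp-1, moved in both directions: of 11 peaks 2 rose and 1 fell in RORgt-KO, 2 rose and 2 fell in RORgt-Tbet-KO, and 5 rose and 2 fell in RORgt-RORa-KO. The peak 7294 bp downstream rose by 1.25, 1.27 and 1.68 (SE 0.21, 0.21 and 0.19) and its neighbour at 5351 bp fell by 1.97 in RORgt-Tbet-KO (SE 0.48; adjusted p = 0.0936 without its replicate 2) and by 1.56 in RORgt-RORa-KO (SE 0.43; adjusted p = 0.0523 without its replicate 1). The peak at 28309 bp fell in each knockout, by 2.26, 2.26 and 1.89 (SE 0.63, 0.63 and 0.56), and the RORgt-KO call was lost without either RORgt-KO library (adjusted p = 0.0953 and 0.126), the RORgt-Tbet-KO call without RORgt-Tbet-KO replicate 2 (0.113) and the RORgt-RORa-KO call without RORgt-RORa-KO replicate 3 (0.112). Without Control replicate 2 the RORgt-KO call was lost (0.0667) and the RORgt-RORa-KO p stood at 0.05, and with no mean-variance trend all 3 calls were lost (0.0837, 0.0591 and 0.0531). At Fos, the AP-1 subunit gene, 0, 4 and 4 of 8 peaks rose and 0 fell. The peak 4814 bp upstream, at 6.23, 6.97 and 6.43 in Control, was at 7.78 and 7.92 in RORgt-Tbet-KO. Of the 10 peaks around Tnfaip3, the gene of the NF-kB inhibitor A20, 1 fell in RORgt-KO, 2 rose in RORgt-Tbet-KO, and 1 rose and 1 fell in RORgt-RORa-KO. The most accessible of them, 46581 bp away, rose in RORgt-Tbet-KO from 9.31, 9.30 and 9.10 to 10.12 and 10.05 (0.85, SE 0.19, adjusted p = 0.00141). Of all intergenic peaks, 15.3% were called in either direction in RORgt-KO, 25.8% in RORgt-Tbet-KO and 36.5% in RORgt-RORa-KO. The Tnfaip3 counts do not exceed these shares, and the Prdm1 counts in RORgt-KO and RORgt-Tbet-KO rest on few peaks. These 4 genes were chosen after their values were seen, and peaks of 1 gene share their libraries and are not replicates.

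**Figure D5:**
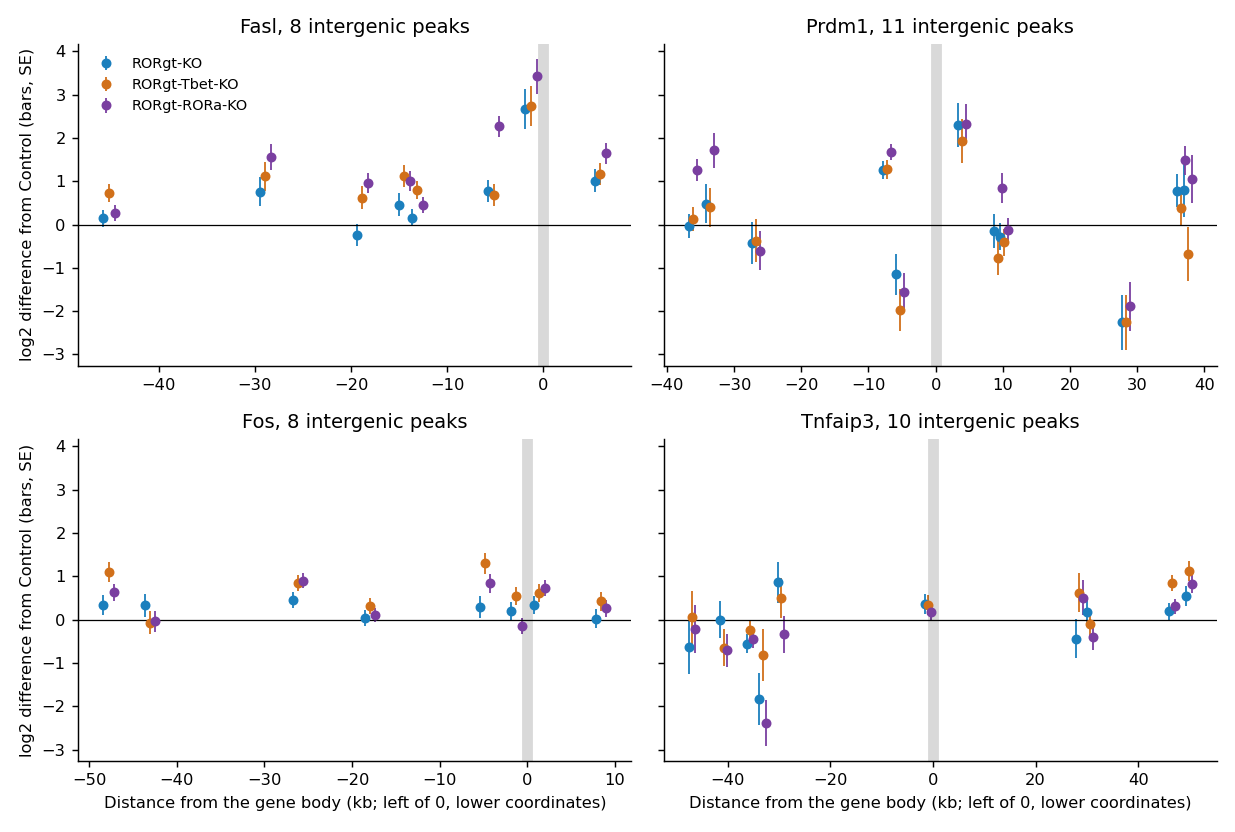
Difference from Control (log2, bars give the SE) of each intergenic peak of Fasl (8), Prdm1 (11), Fos (8) and Tnfaip3 (10), by distance from the gene body in kb, with lower coordinates to the left. The grey band stands for the gene body, which is not drawn to scale, and the colours, shifted slightly for clarity, for the knockouts. At Fasl the called points lie above 0, with the nearest peak, which had few Control reads, highest. At Prdm1 peaks above and below 0 alternate within a few kb.

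MicroRNA hairpins overlapped 9 intergenic peaks at least in part, 12 hairpins in all. Both mature strands of Mir203, and miR-132-3p, begin just past the end of their peak. The peak over Mir132 and Mir212 (chromosome 11, 75172900 to 75173721, 2222 bp from Ovca2) read 6.97, 6.97 and 7.47 over the Control libraries, 7.65 and 7.91 over RORgt-KO, 7.88 and 7.88 over RORgt-Tbet-KO, and 7.48, 7.05 and 7.96 over RORgt-RORa-KO. Its level was 0.74 higher in RORgt-Tbet-KO than in Control (SE 0.23, adjusted p = 0.019), a call lost without either RORgt-Tbet-KO library (0.122 and 0.127) or without Control replicate 1 (0.0687) or 2 (0.0711). The mature 3p sequences of this pair, shown because they share the seed (bases 2 to 8, in capitals), are, 5′ to 3′ from RefSeq (GRCm38.p6):
miR-132-3p: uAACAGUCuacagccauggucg
miR-212-3p: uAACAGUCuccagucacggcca
The peak over Mir8096 differed from Control by -0.57 in RORgt-Tbet-KO (SE 0.19, adjusted p = 0.028), a call lost without any 1 of RORgt-Tbet-KO replicates 1 (0.292) and 2 (0.0847) and Control replicates 1 (0.0617) and 2 (0.0986), and after centring libraries on their median (0.0559). The other 7 passed in no knockout against Control. The peak over Mir155, a microRNA of lymphocyte activation, was the most accessible of the 9, reading 8.55, 8.91 and 8.25 over the Control libraries, 8.89 and 8.91 over RORgt-KO, 9.20 and 8.90 over RORgt-Tbet-KO, and 8.51, 9.48 and 8.87 over RORgt-RORa-KO, and its groups overlapped. The seed of its mature 5p strand differs from those of the pair above:
miR-155-5p: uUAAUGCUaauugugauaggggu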

How the data were processed

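ATAC-seq values came from 1 deposited table of 36262 peaks on GRCm38, in which the authors gave log2 scaled read counts per peak and library; where the scaling factor comes from is not stated. Per the submitters' processing notes, the authors used Trim Galore 0.62, Bowtie2 2.3.5.1, SAMtools and MACS2. The 11 peaks on Y were left out. Raised to the power of 2, every non-empty value was a whole multiple of 1 step per library within a tolerance of 0.01, so reads were recovered; empty peaks held 0.9 of the step. Depth differed between libraries, and the median SE of an intergenic peak was 0.31 to 0.35 against Control.

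Distances were measured to the bodies of 21900 protein-coding genes of RefSeq (GRCm38.p6), with strand known for 5866 of 7572 members. The test was limma 3.58.1 (R 4.3.3) over every peak, applied to the log2 values as deposited, with lmFit and eBayes, a mean-variance trend and all 4 groups together (residual degrees of freedom 6, prior 22.5), two-sided, with Benjamini-Hochberg adjustment over all peaks of a contrast at 0.05. The script was tested on simulated data. The labels give no batch; libraries are separate intestines or pools, so p-values measure the spread between these. Replicate numbers were not taken to pair the samples in the main test.

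Members, 13 gene lists with 189 genes and the alternatives were chosen with earlier results of these data known. Named peaks are, in each knockout against Control, the 5 largest called rises and falls (3 between knockouts) without overlap of the groups, 1 per gene, predicted genes left out and with at least 10 reads in the lower group, the best called peak of up to 3 genes per list, and the smallest F p per distance bin; some are not described. List peaks called between knockouts, the 4 multi-peak genes, the microRNA peaks and the Ets1 window were added after values were seen. Alternatives were other scalings, no trend, limma voom on recovered reads, a read filter, only 2 groups in the fit, library weights, a replicate block, other distance rules and leaving out each library; the share of fallen peaks by distance was added after the data were seen. Figures were drawn with matplotlib 3.10.9. One marker gene is not reported here by name.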

Additional observations from a re-analysis of the deposited data

How the results depend on the processing

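With 2 or 3 libraries per group and a median of 27 to 51 reads per intergenic peak, counts of called peaks depend on single libraries and on the model. Without 1 library the counts ranged from 455 to 1313 (RORgt-KO against Control), 859 to 2048 (RORgt-Tbet-KO against Control), 2327 to 2810 (RORgt-RORa-KO against Control), 32 to 68 (RORgt-Tbet-KO against RORgt-KO), 28 to 164 (RORgt-RORa-KO against RORgt-KO) and 283 to 928 (RORgt-Tbet-KO against RORgt-RORa-KO). With no mean-variance trend the last 3 were 24, 15 and 440, and with library weights 777, 296 and 1557. For RORgt-Tbet-KO against RORgt-KO, limma voom gave 199, only these groups in the fit 807 and the replicate block 205. The cause was not tested. The counts against Control stayed within 1.5 times under all alternatives other than leaving out a library.

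Same-numbered libraries showed no clear shared deviation (r = -0.121 to 0.143). In a group of 2 libraries the deviations mirror each other, so this check cannot exclude pairing. With the replicate block the other counts were 1451, 2317 and 2907 against Control, 179 for RORgt-RORa-KO against RORgt-KO and 904 between the double knockouts. Near-to-far difference in Control, main value -0.219, turned to 0.131 over peaks with at least 20 mean reads and was -0.309 with all gene types and -0.247 to -0.193 without 1 library; the cause was not tested. Of 194 results for single peaks, 115 kept direction and call under every alternative; 56 lost the call with no trend, and 0 reversed.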
